A study of Arabidopsis thaliana with 24 samples.

Results

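Roots of 2 transgenic Arabidopsis thaliana lines, ISH1 and ISH2, that had not received estradiol were compared with roots of control plants that had not received it either. The arrays were taken by their labels, and 9 of the 24 arrays in the series belonged here, with 3 each of ISH1_non-induction, ISH2_non-induction and control_non-induction. The other 15 arrays held the ISH1&2 line and the plants of all 4 kinds with estradiol, and they entered only where they are named. All plants were of the Col-0 ecotype. Seed of every group, the control included, was germinated on hygromycin plates, resistant seedlings moved after 8 days to plates with or without 5 µM estradiol, and roots were taken at an age of 15 days. The labels name the lines without saying which gene each carries, and neither the labels nor the methods say what the control plants carry. For control replicate 2 a description field speaks of induction while its title, source name and genotype field do not, and these 3 were followed.

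In the inducible system used in the study, a hybrid activator named XVE stays inactive until estradiol binds it, and it then switches on a cDNA placed behind LexA operator sites. The cDNAs of the study were those of the zinc-finger homeodomain protein ATHB25 and the B3-domain transcription factor REM7, which the study induced singly and together in its work on shoot-like organs in roots. The arrays without estradiol show how each line stood against control roots before induction. How many transformed plants stand behind each line is not given in the sources used here, so the construct and the line that carries it cannot be told apart.

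Values are log2 of the scanner's processed signal minus the 75th percentile of the array, so that 0 is a bright probe and -8 to -11 is at or near background. Differences came from 1 limma model of all 24 arrays, and those with p adjusted over 27816 genes (Benjamini-Hochberg) of less than 0.05 were called. Nothing in the labels says that replicates came from separate sets of plants, so p-values measure the spread between these samples. Each of the 6 slides carried the 4 kinds of plants of 1 treatment and replicate, always in the same order, so line and position on the slide cannot be told apart. All 12 root marker genes were well above background on all 9 arrays and none was called, with a summed log2 signal of 4.93 to 5.01 in ISH1, 4.90 to 5.02 in ISH2 and 4.83 to 5.02 in control roots. All 25 photosynthesis genes were also detected on every array and none was called, at summed signals of 6.89 to 7.0 in ISH1, 6.86 to 7.0 in ISH2 and 6.71 to 7.0 in control roots.

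One array stood apart. On ISH1 replicate 1, 91% of the probes were well above background, against 76.9% to 84.8% on the other 23 arrays. The spike-in RNA named E1A_r60_3, which the labelling kit adds at a low level, had a log2 signal of 5.38 on this array, against 1.77 to 3.12 on the others, and the spike-in a104 had 6.73, against 2.84 to 4.31. Dim probes were raised on this array. Relative to the mean of ISH1 replicates 2 and 3, probes below -8 were higher by a median of 2.64, whereas probes above -2 differed by a median of 0.01. Results for ISH1 are given with this array and without it where the call or the count changed.

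**Figure D1:**
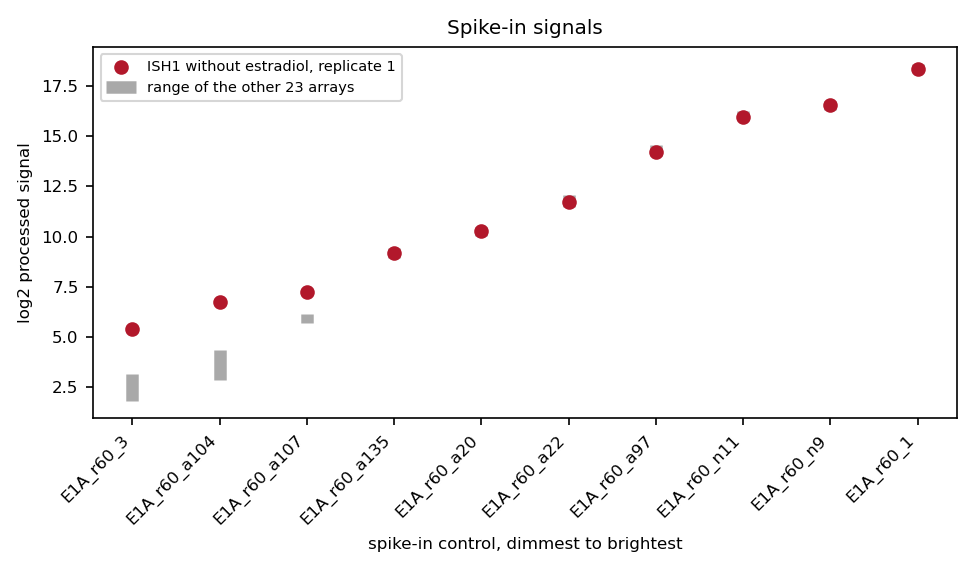
Log2 signal of each spike-in RNA (vertical) against the spike-ins from dim to bright (horizontal), with ISH1 replicate 1 as points and the range of the other 23 arrays as bars. The 3 dimmest spike-ins lie above the range on ISH1 replicate 1, at 5.38, 6.73 and 7.24, and the brighter ones lie within it.

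The first question was whether the factors themselves were silent without estradiol. ATHB25 (AT5G65410, chromosome 5, 26136002 to 26137554) was at -4.19, -4.60 and -4.58 in ISH1, against -9.05, -8.87 and -8.78 in control roots, where no array held it well above background. The groups did not overlap. Under the main processing ATHB25 was at least 20.3-fold higher in ISH1 (limma, fitted difference 4.44 ± 0.36 SE, adjusted p = 1.33e-06, and 1.86e-05 without ISH1 replicate 1). The fitted difference was 3.25 with a pseudocount of 16, still called, and 1.77 with normexp background correction, which ended the call (adjusted p = 0.484, within a range of 2.82e-07 to 0.484 over the alternatives). For such bounds each array of the dim group was raised to the lowest signal well above background where its own value lay under it. They hold only for the main processing with all 3 arrays of each group. The differences of ATHB25 with the pseudocount and with normexp lay below its bound. With estradiol ATHB25 differed by 13.24 between ISH1 and control roots, so its level without estradiol was far below that of induced plants. In ISH2, ATHB25 was at -6.57, -7.13 and -7.94, also above all control arrays. Its bound there was 3.01-fold, but the fitted difference was only 0.96 with the pseudocount and 0.27 with normexp. Under the main processing the difference was called (adjusted p = 0.0371). That call was lost without ISH2 replicate 1 or 2 or any 1 control array, at adjusted p of 0.097 to 0.242, and with estradiol ATHB25 did not pass the test in ISH2 (difference -0.43, adjusted p = 0.37). The difference of 2.75 between ISH1 and ISH2 passed it (adjusted p = 0.000282).

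REM7 (AT3G18960, chromosome 3, 6542456 to 6543676) was at 0.18, 0.06 and -0.16 in ISH2, against -1.72, -1.72 and -1.47 in control roots. All 3 ISH2 arrays lay above all control arrays, but the difference of 1.67 ± 0.41 SE missed the threshold over all genes (adjusted p = 0.0805), and it passed when only the 9 arrays were fitted (adjusted p = 0.000877, within a range of 0.000877 to 0.564 over the alternatives). A second probe of REM7 differed by 1.87. In ISH1, REM7 was at -1.66, -1.60 and -1.56, within the control range, and ISH1 was lower than ISH2 by the called difference of -1.64 (adjusted p = 0.0478). With estradiol REM7 differed from control roots by 7.61 in ISH2 and by 2.53 in ISH1. Whether a probe also reads an introduced copy was not tested.

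Of the other 5 zinc-finger homeodomain genes of the list, ATHB33 was higher in ISH1, at -4.68, -5.99 and -6.12, against -8.09, -7.95 and -8.06 in control roots (difference 2.43 ± 0.43 SE, adjusted p = 0.00975). It lost the call without ISH1 replicate 1 (difference 1.97, adjusted p = 0.0664). ATHB22 differed by 1.55 in ISH1 (adjusted p = 0.0532), and ATHB31, ATHB29 and ATHB21 were called in neither line. In all, 2 of 7 members of the list passed the test in ISH1 and 1 in ISH2, all of them higher, against 0.64% and 0.313% of all genes called higher.

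In ISH1, 213 genes were called, which was 0.766% of the genes tested. Of these 178 (0.64%) were higher and 35 (0.126%) were lower than in control roots, and 3659 genes had an unadjusted p below 0.05. The higher genes had a median difference of 1.5, and 115 were at least 2-fold higher. Of them, 102 were well above background on all 6 arrays, and in 52 no control array was. The 35 lower genes had a median of -0.28, and 33 were well above background on all 6 arrays. The median over all genes was 0.02. Every called gene kept its sign on each of the 3 slides, but the same arrays gave the calls, so this is no separate check. Without ISH1 replicate 1, 66 genes (0.237%) were higher and 14 (0.0503%) lower, and 66 of the 178 and 12 of the 35 were still called. The total was 80 without that array, 332 without ISH1 replicate 2, 422 without replicate 3, 106 without control replicate 1 and 102 without control replicate 2.

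**Figure D2:**
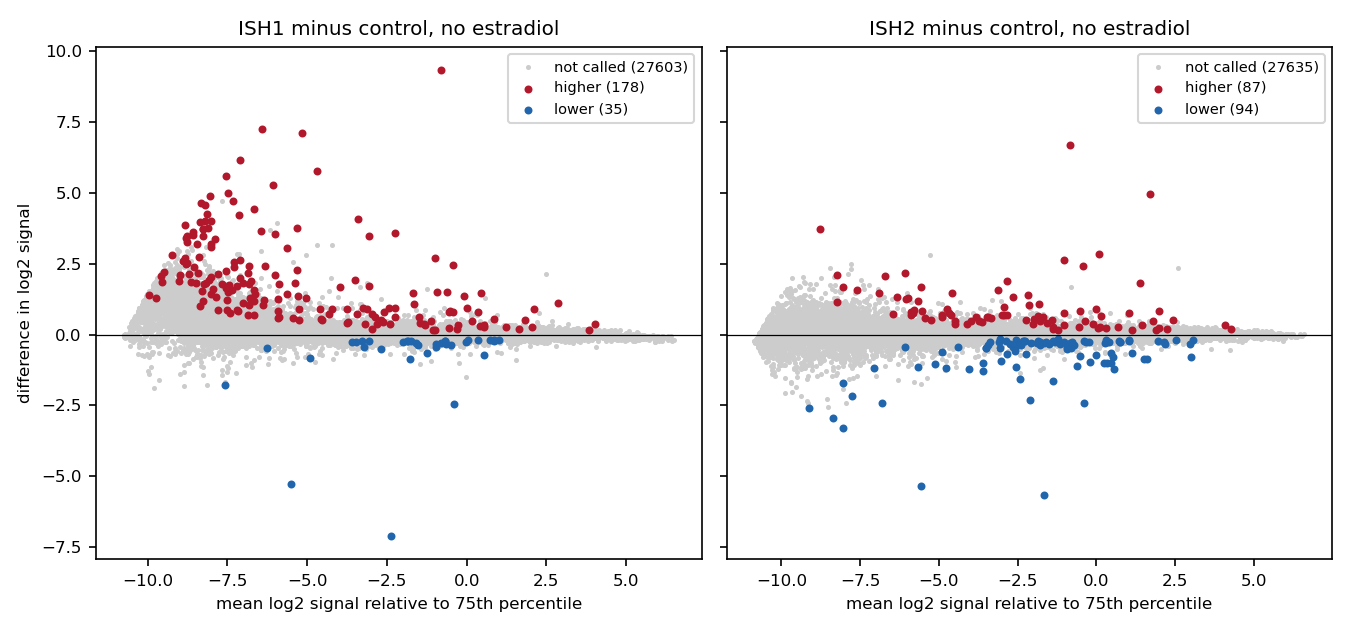
Difference between each line and control roots on the log2 scale (vertical), 1 point per gene, with called genes in colour. The horizontal axis is the mean of the levels in that line and in control roots. Called genes of ISH1 lie mainly above 0, with 178 higher and 35 lower, while those of ISH2 lie on both sides, with 87 higher and 94 lower.

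The largest difference in ISH1 was at AT4G16215 (chromosome 4, 9179244 to 9179833), a locus without a symbol in the reference table. It was at 4.04, 4.13 and 3.36 in ISH1, against -5.60, -5.58 and -5.26 in control roots, a difference of 9.32 ± 0.33 SE (limma, adjusted p = 3.51e-12). ISH2 roots held it at -5.53, -5.37 and -5.61, close to the control values. The gene was thus bright in ISH1 and dim in ISH2 and control roots, and of its 4 nearest tested neighbours none was called in ISH1. With estradiol the difference of ISH1 was 9.41, and without estradiol the ISH1&2 line differed from control roots by 3.77 (adjusted p = 2.91e-06).

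Other genes that rose in ISH1 were spread widely among the replicates. AT3G05730 (chromosome 3, 1695156 to 1696708) was at 0.22, -1.56 and -4.03, against -7.16, -7.50 and -8.03 in control roots (5.77 ± 0.64 SE, adjusted p = 7.78e-05, and 3.83e-05 without ISH1 replicate 1). AT5G63180 was at -2.08, -3.37 and -4.88, against -7.03, -7.44 and -7.15 (3.76 ± 0.53 SE, adjusted p = 0.00145). MLP423, which encodes an MLP-like protein, was at -1.69, -2.72 and -3.20, against -4.53, -4.26 and -4.55 (1.91 ± 0.30 SE, adjusted p = 0.00359). In each of these genes replicate 1 was the highest and replicate 3 the lowest ISH1 array, yet all 3 lay above all control arrays. Over the 178 higher genes, replicate 1 was the highest ISH1 array in 75.3%, against 52.5% of all genes, and replicate 3 the lowest in 69.7%, against 42.2% of all genes. AT1G09310 (3.46), AT2G27385 (3.07) and AT5G54630 (2.16) had the same order of arrays and stayed called without replicate 1.

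Of the genes near background in control roots, LTL1, a GDSL-type lipase, was at -2.99, -4.17 and -4.89 in ISH1, against -9.97, -10.31 and -10.28 in control roots, at least 35.3-fold higher (adjusted p = 1e-06). Several of the rises came in neighbouring pairs. AT3G05727 lay next to AT3G05730 and was at least 5.77-fold higher, and AT4G22513 and its neighbour AT4G22517 were at least 7.69-fold and 6.75-fold higher. AT3G16660 was at -1.76, -6.01 and -7.33 in ISH1, against -9.03, -8.38 and -10.33 in control roots, and its neighbour AT3G16670 at -2.19, -7.01 and -8.59, against -10.20, -10.50 and -10.76. In this pair replicate 1 alone stood more than 4 units above the other ISH1 arrays, and the differences of 4.22 and 4.56 shrank to 2.58 and 2.69 without it. They stayed called without that array and lost the call without control replicate 1 or 3, at adjusted p of up to 0.116 and 0.104, and AT3G16670 also without control replicate 2. The lipid transfer protein genes LTP2 and LP1, also neighbours, were higher by 0.90 and 1.38, a pair picked after its values were seen, and both lost the call without ISH1 replicate 1 (adjusted p = 0.246 and 0.202).

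Several of the genes higher in ISH1 are known from leaves. GER3, a germin-like protein, was at -0.52, -1.85 and -2.49 in ISH1, against -8.75, -8.83 and -8.60 in control roots. Its fitted difference of 7.11, or 138-fold, equalled its bound (limma, adjusted p = 0.000886). Without ISH1 replicate 1 the difference was 6.56 (adjusted p = 0.00841). No control array held GER3 well above background, so this fold depends on values near background. A second, dimmer probe of GER3 differed by 4.87 in ISH1. TGG1, a myrosinase that splits glucosinolates in leaf myrosin cells and guard cells, was at -1.59, -2.66 and -4.10, against -10.24, -10.52 and -9.39. By this probe it was at least 82.9-fold higher (limma, adjusted p = 0.0123). Dimmer probes of TGG1 differed by 4.40 and 4.37 in ISH1, which is less than that bound. Its neighbour and fellow myrosinase TGG2 differed by 5.29 (adjusted p = 0.00707). Both myrosinase genes lay above all control and ISH2 arrays in ISH1 and lost the call without ISH1 replicate 1, at adjusted p of 0.0802 and 0.0539. TGG1 also lost it without control replicate 1 or 2.

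Because these genes had drawn attention, 25 leaf and shoot genes, 5 of them already seen in the values, were then examined as a list, and its counts are a description. Of 24 tested, 7 were higher in ISH1 and none lower, against the background of 0.64% and 0.126%, and 3 were still called without ISH1 replicate 1. The 5 genes already seen, GER3, TGG1, TGG2, YAB5 and TCP5, were all among the 7, so this count follows from the choice of the list. Only FIL and CER6 were added by it. The 3 that stayed called were GER3, YAB5 and TCP5, all already seen. The YABBY factors of leaf polarity FIL and YAB5 were at least 4.44-fold (adjusted p = 0.0157) and 5.0-fold higher (adjusted p = 0.00836), and CER6, an enzyme of cuticular wax synthesis, differed by 0.80 (adjusted p = 0.0262). FIL and CER6 lost the call without ISH1 replicate 1, at adjusted p of 0.0551 and 0.162. TCP5, a TCP factor of leaf growth, was called as well (adjusted p = 0.0231), but it was well above background on only 1 ISH1 array and on no control array, so no fold is given. FIL was at -5.44, -7.48 and -8.10 in ISH1, against -9.75, -9.44 and -10.08 in control roots, so again no arrays overlapped. The stomatal genes EPF2 (2.54, adjusted p = 0.0524), SPCH (1.53, adjusted p = 0.306) and MUTE (1.26, adjusted p = 0.516) did not pass. Over the 24 members the median difference was 1.03 in ISH1, 0.51 without ISH1 replicate 1, and 0.07 in ISH2, where CER1 alone was called.

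The summed log2 signal of the leaf list was 3.05, 2.91 and 2.81 on the ISH1 arrays, 2.73, 2.69 and 2.66 on the ISH2 arrays and 2.66, 2.57 and 2.66 on the control arrays. Of its members, 23, 21 and 21 were well above background on the ISH1 arrays, 16, 14 and 13 on the ISH2 arrays and 14, 13 and 13 on the control arrays. Uninduced ISH1&2 replicate 3 was at 2.83, above ISH1 replicate 3, and control replicate 2 with estradiol was at 3.07, above all uninduced ISH1 arrays. With estradiol, 7 members were called higher and 8 lower in ISH1, at a median of -0.14, against 27.5% of all genes called higher and 34.3% lower there. Probes of one gene also differed. A dim probe of RBCS2B, a small subunit of Rubisco, was at -0.83, -2.10 and -2.85 in ISH1, -6.25, -6.34 and -7.04 in ISH2 and -7.53, -7.06 and -6.52 in control roots, while its brightest probe was at 2.72, 2.21 and 2.35 in ISH1 and at 1.89, 1.86 and 2.16 in control roots and was not called. The dim probe also read 0.85 on 1 of the control arrays with estradiol. In bulk roots, more cells of a type and more RNA per cell cannot be told apart, and the part of shoot tissue in the root samples in these values was not tested. Of the photosynthesis genes, none was called and the summed signals overlapped between ISH1 and control roots, as given above.

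**Figure D3:**
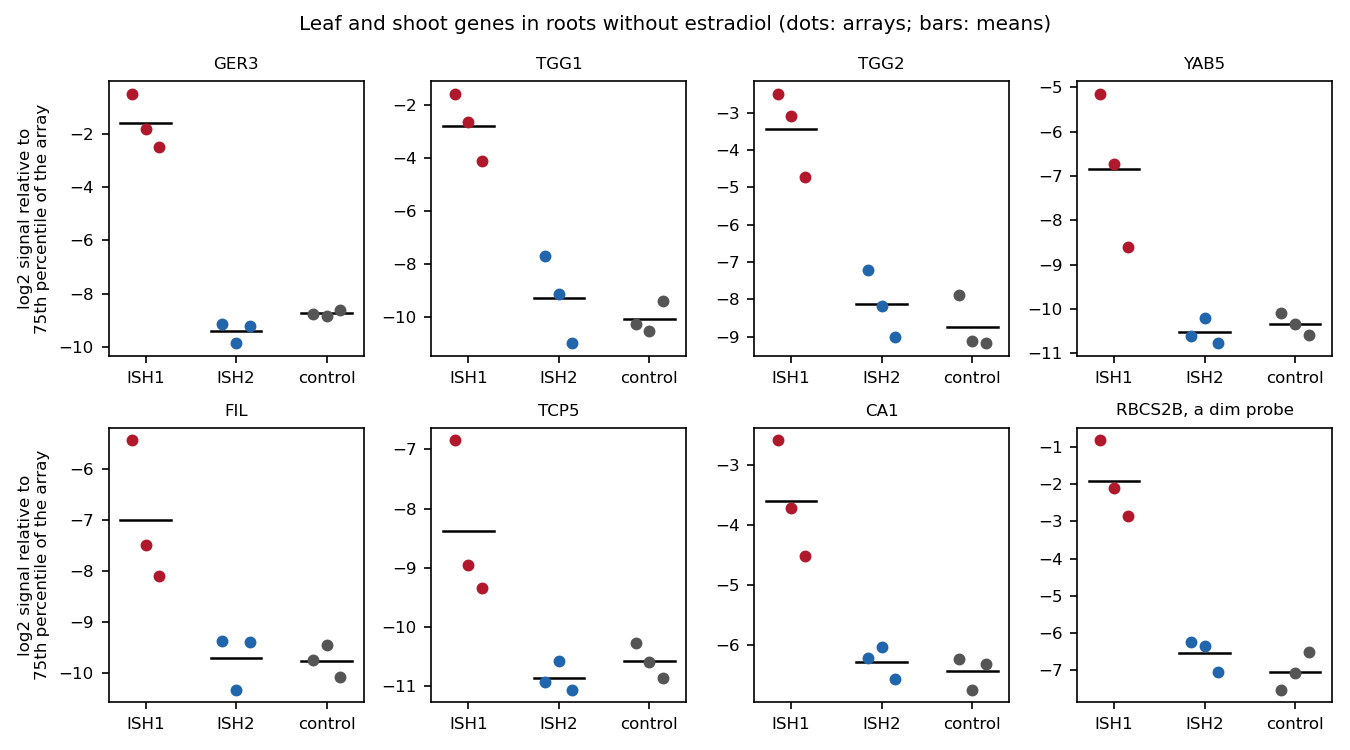
Level of 7 leaf and shoot genes and of the dim RBCS2B probe on each array (vertical, log2 relative to the 75th percentile), for ISH1, ISH2 and control roots without estradiol, 1 point per array. The ISH1 points lie above the control points in every panel, as for GER3 at -0.52 to -2.49 against -8.83 to -8.60, and spread more widely than the control points.

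Genes lower in ISH1 changed little. There, 6 met the conditions for being named, of which 3 fell in both lines, AT1G32810 (-0.23) among them, and the others were AT2G16890 (-0.45), AT1G80520 (-0.27) and CRY3, a cryptochrome (-0.20). AT2G16890 was at -1.28, -1.10 and -1.13 in ISH1, against -0.71, -0.75 and -0.70 in control roots (adjusted p = 0.00251), but its 3 dimmer probes differed by -0.18 to 0.32. CRY3 and AT1G32810 each lost the call when any 1 of 5 arrays was left out, at adjusted p of up to 0.17 and 0.117. Replicates 2 and 3 of ISH1 and control replicates 1 and 2 were among the 5 for both.

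In ISH2, 181 genes were called (0.651%), 87 of them higher (0.313%) and 94 lower (0.338%) than in control roots, and 2935 genes had an unadjusted p below 0.05. The changes were more even than in ISH1. Of the higher genes, 81 were well above background on all 6 arrays, and 26 were at least 2-fold higher, with a median of 0.69. Of the lower genes, 87 were well above background on all 6 arrays, and 22 were at least 2-fold lower, with a median of -0.44. Every called gene kept its sign on each of the 3 slides, again on the arrays that gave the calls. The total fell to 69, 98 and 112 without ISH2 replicate 1, 2 or 3 and to 87, 111 and 105 without control replicate 1, 2 or 3.

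The largest rise in ISH2 at a known locus was that of a cell wall gene. TBL10 (AT3G06080, chromosome 3, 1834591 to 1837988), a TRICHOME BIREFRINGENCE-LIKE protein of the family that adds acetyl groups to wall polysaccharides, was at 4.38, 4.27 and 3.89 in ISH2, against -0.72, -0.71 and -0.86 in control roots (4.94 ± 0.23 SE, adjusted p = 2.51e-10). ISH1 held it at -0.01, -0.36 and -0.50, so the ISH2 arrays stood alone, and a second probe differed by 5.07 in ISH2. ESK1 (AT3G55990), the xylan acetyltransferase of the same family, was at 2.45, 2.34 and 2.09, against 0.52, 0.44 and 0.50 (1.81 ± 0.09 SE, adjusted p = 4.65e-10). Both genes were also called against ISH1, and both differences stood with estradiol, at 5.02 and 2.07.

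AT2G41640 was at 1.56, 1.53 and 1.44 in ISH2, against -1.16, -1.44 and -1.34 in control roots (2.83 ± 0.18 SE, adjusted p = 2.69e-08). Of its other probes one differed by 2.85 and one by -0.05, so the probes of this gene disagreed. RLP38, a receptor-like protein, rose by 2.16 ± 0.24 SE (adjusted p = 5.76e-05), DIR5, a dirigent protein, by 1.87 ± 0.38 SE (adjusted p = 0.026) and AT5G53486 by 1.69 ± 0.36 SE (adjusted p = 0.0371). DIR5 and AT5G53486 lost the call when any 1 ISH2 or control array was left out, at adjusted p of up to 0.167 and 0.153. MAF4 and MAF5, neighbouring MADS-box genes of the FLC group of floral repressors, were picked after their values were seen. MAF4 was at -1.94, -2.20 and -1.84 in ISH2, against -3.29, -3.54 and -3.13 in control roots (1.33 ± 0.12 SE), and MAF5 differed by 1.47 ± 0.15 SE. The neighbours of TBL10 and AT2G41640 included 1 called gene each, AT3G06070 and AT2G41650, and both were lower in ISH2, by -0.48 and -0.32.

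A probe of no known locus, A_84_P761415, was at 2.43, 2.46 and 2.61 in ISH2, against -4.31, -4.33 and -3.91 in control roots, and its difference of 6.68 was the largest rise of the line (adjusted p = 4.65e-10). It too was chosen after its value was seen.

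**Figure D4:**
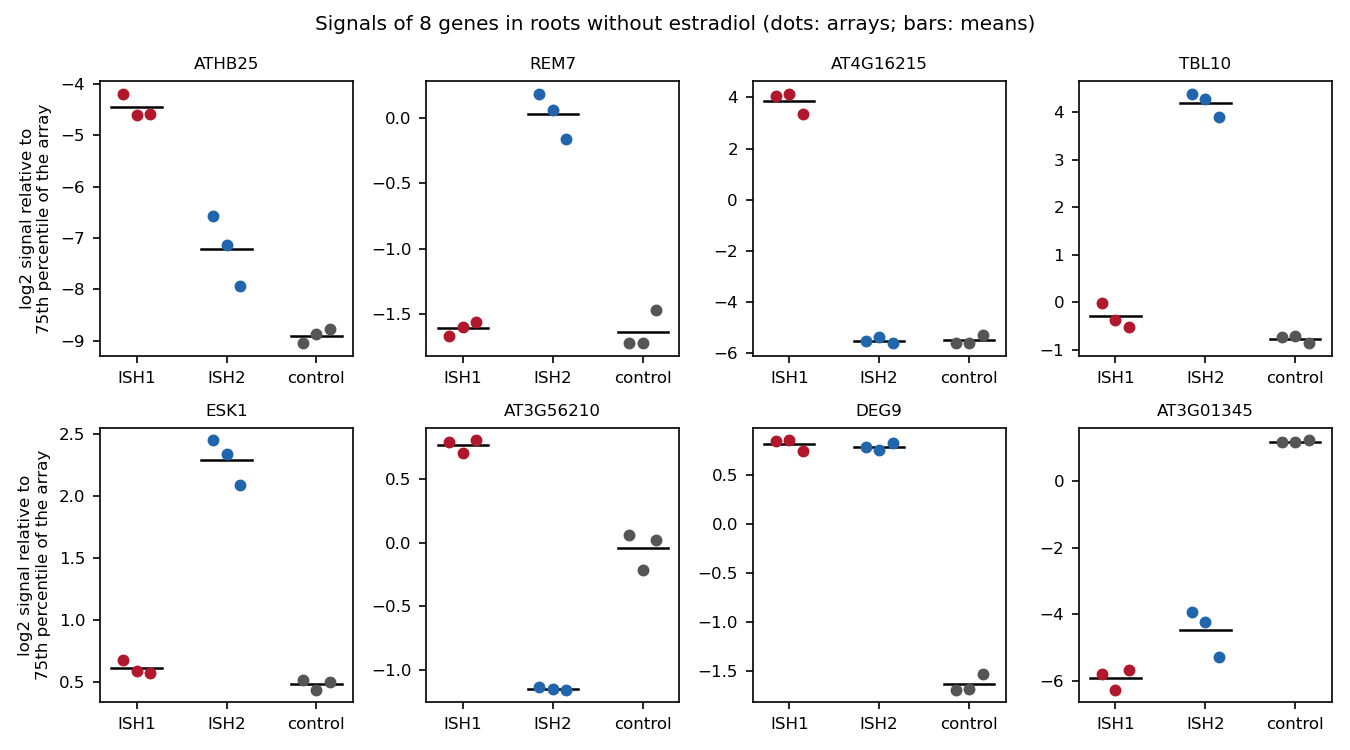
Level of 8 genes on each array (vertical, log2 relative to the 75th percentile) for ISH1, ISH2 and control roots without estradiol, 1 point per array. ATHB25 and AT4G16215 stand out in ISH1, REM7, TBL10 and ESK1 in ISH2, DEG9 is higher and AT3G01345 lower in both lines, and AT3G56210 lies at 0.70 to 0.80 in ISH1 and at -1.16 to -1.14 in ISH2.

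Among the falls in ISH2, HSD4, a hydroxysteroid dehydrogenase gene, was at -1.96, -2.16 and -2.46, against -0.29, -0.64 and -0.78 in control roots (-1.63 ± 0.19 SE, adjusted p = 9.46e-05). AT4G07820 was at -0.31, 0.01 and 0.12, against 1.28, 1.24 and 0.96 (-1.22 ± 0.21 SE, adjusted p = 0.00718). AT1G67150 (-1.57), AT5G08250 (-1.29) and the auxin-responsive SAUR gene AT1G43040 (-1.18) were lower as well. AT1G33320 was lower by -1.23 without estradiol (adjusted p = 2.1e-05) and higher by 2.91 with it. AT2G03822 was at -11.07, -8.47 and -9.54, against -6.0, -6.04 and -7.13, and at least 7.47-fold lower (adjusted p = 0.014), though the call was lost without ISH2 replicate 1 or control replicate 1 or 2 (adjusted p up to 0.0995). Without ISH2 replicate 1 AT1G67150 and AT4G07820 also lost theirs, at adjusted p of 0.0548 and 0.0674, and AT5G08250 lost it without any 1 ISH2 or control array (adjusted p up to 0.141).

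Of the 94 genes lower in ISH2, 12 lay close together. A stretch of chromosome 5, from AT5G50540 to AT5G50680 (20574577 to 20621103, 46527 bp), held 19 annotated genes, of which 13 were tested and 12 (92.3%) were called lower, against the background of 0.338%. The stretch was chosen because its called genes were seen to lie in a row, so this count describes it. The median difference of its 13 genes was -0.99, a level of 0.502 of that in control roots, and 12 had all ISH2 arrays below all control arrays. AT5G50565 was at -0.0049, -0.02 and -0.05 in ISH2, 0.74, 0.87 and 0.89 in ISH1 and 0.98, 0.97 and 0.98 in control roots (ISH2 -1.0 ± 0.03 SE, adjusted p = 2.01e-12). AT5G50680, 1 of the 2 SAE1B genes for the small subunit of the SUMO-activating enzyme, was at -0.25, -0.22 and -0.30, against 0.76, 0.69 and 0.77 in control roots. SPL13B, an SBP-box transcription factor, was at -3.52, -3.45 and -3.51, against -2.55, -2.64 and -2.48. Bright and dim genes alike were lower, and the 12 called differences lay between -1.63 and -0.69. The exception was HSD1, at -5.85, -6.03 and -6.21, against -5.08, -5.92 and -6.09 in control roots, where the groups overlapped (-0.34 ± 0.45 SE).

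None of the 20 tested genes within 60 kb on either side was called. The nearest of them were NF-YC5, which ends at 20561228, and HVA22E, which starts at 20633193, so the edges are not resolved beyond these genes. In ISH1 the 13 genes had a median difference of -0.05 with none called, and 12 were called lower in ISH2 than in ISH1. In the ISH1&2 line the median was 0.00, with HSD4 called lower (-0.72, adjusted p = 0.0234) and HSD1 called higher (2.37, adjusted p = 0.00473). With estradiol, on other arrays, ISH2 gave a median of -0.95, a range of -1.85 to -0.58 and 12 genes called lower, against 18.5% of all genes. Both bordering genes were also lower there, NF-YC5 by -1.06 and HVA22E by -0.47 (limma, adjusted p = 0.00737 and 7.14e-05). Other flanking genes were called in both directions, so the edges seen without estradiol were not resolved with it. In and beside the stretch, 7 pairs of annotated genes of equal length lie 33.3 kb apart. Their sequences were not compared, and whether a probe reads both members of a pair was not tested.

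**Figure D5:**
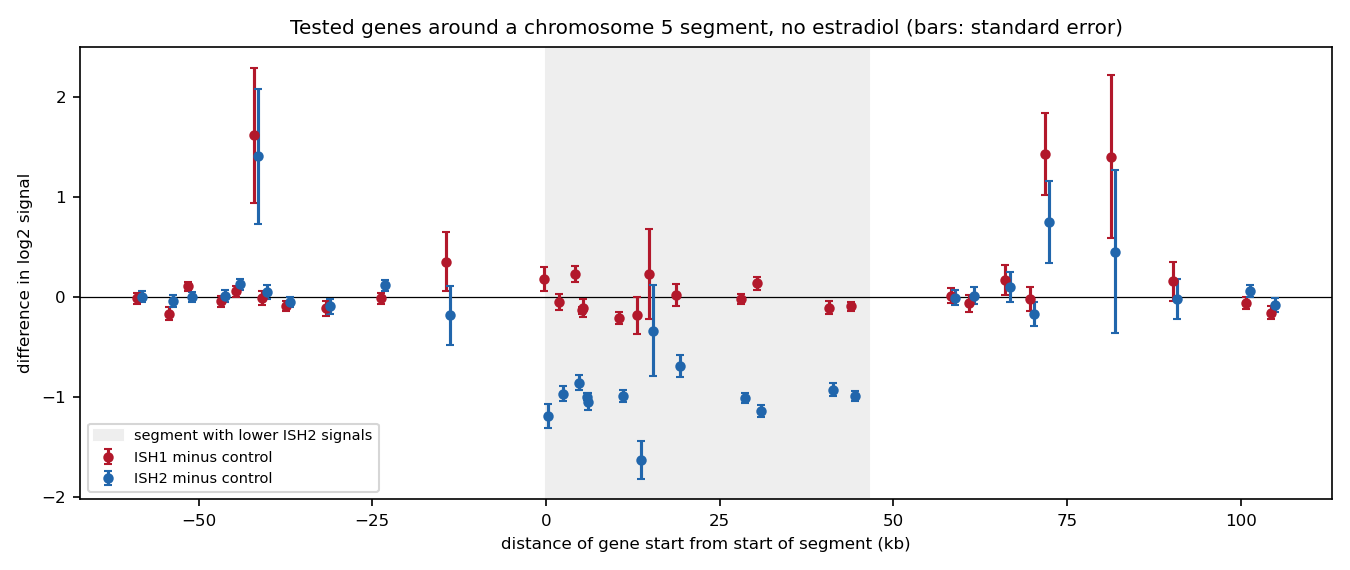
Difference from control roots on the log2 scale (vertical, bars are the SE of the fit) for ISH1 and ISH2 against the distance in kb from the start of the chromosome 5 stretch (horizontal), 1 point per tested gene, with the stretch shaded. Inside it the ISH2 points lie between -1.63 and -0.34 and the ISH1 points near 0, and outside it no gene was called, although AT5G50423, HSD6 and SWEET10 lie as high as 1.61, 1.42 and 1.40 in ISH1.

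Both lines were set against the same 3 control arrays, so a gene off in those arrays would appear in both. Of the genes tested, 17 were called higher in both lines (0.0611%), 8 lower in both (0.0288%) and 1 in opposite directions (0.0036%), so that 25 (0.0899%) shared a direction. For 24 of the 25 with the same direction, the control arrays lay outside the range of all 9 arrays of the lines, ISH1&2 included. In ISH1&2, 24 were also called that way, where 9.62% of all genes were called, 4.17% higher and 5.45% lower. The 25 were picked for differing from these control arrays, and ISH1&2 was set against the same arrays. Neither count is therefore independent of the selection. With estradiol, where the control arrays are others, 16 of the 25 were called the same way in both lines. Of all genes, 27.5% were called higher and 34.3% lower there in ISH1, and 21.5% and 18.5% in ISH2. The share of all genes called the same way in both was not counted. Between ISH1 and ISH2 themselves only 1 of the 25 was called, ATHB25. The count was 18 without ISH1 replicate 1 (11 higher and 7 lower), and 16 without ISH2 replicate 1 and also without control replicate 2.

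DEG9 (AT5G40200, chromosome 5, 16070146 to 16073387), a serine protease of the DEG family, was at 0.85, 0.85 and 0.74 in ISH1 and at 0.78, 0.75 and 0.82 in ISH2, against -1.70, -1.69 and -1.53 in control roots. The differences were 2.45 and 2.42, each with an SE of 0.05 (adjusted p = 1.17e-15 and 1.41e-15), and 2.53 in ISH1&2. With estradiol they were 2.32 in ISH1 and 2.52 in ISH2, so DEG9 set both lines apart from the control plants in both treatments. RAC2 was higher by 1.71 in ISH1 and 1.58 in ISH2 (limma, adjusted p = 9.82e-09 and 1.79e-08). Of its 4 nearest tested neighbours, 1 was called in each line, AT5G45950 in ISH1 (2.27) and AT5G45960 in ISH2 (0.72). The cytochrome P450 genes CYP97B3 and CYP96A4 were higher by 0.94 and 0.73 in ISH1 and by 0.92 and 0.70 in ISH2. AT2G25730 was higher by 0.83 in ISH1 and 0.84 in ISH2. CLV1, a receptor kinase that limits meristem size, was at 2.05, 2.12 and 2.15 in ISH1 and at 2.08, 2.02 and 2.02 in ISH2, against 1.60, 1.56 and 1.57 in control roots, and its ISH2 call (adjusted p = 0.0106) was lost without ISH2 replicate 1 (adjusted p = 0.0749).

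AT3G01345 (chromosome 3, 129138 to 130749) was the strongest fall in both lines. It was at -5.79, -6.28 and -5.67 in ISH1 and at -3.94, -4.25 and -5.28 in ISH2, against 1.18, 1.16 and 1.22 in control roots. The differences were -7.10 and -5.68, each with an SE of 0.38 (adjusted p = 3.33e-09 and 4.75e-08), and they were -7.59 and -6.39 with estradiol. A second, dimmer probe of the gene differed by -1.61 and -2.50. NOXY38, the FRIENDLY gene that keeps mitochondria evenly spread in the cell, was lower by -0.73 in ISH1 and -0.80 in ISH2, and 1 of its 4 other probes fell to a like extent (-0.70 and -0.82) while the other 3 differed by -0.12 to 0.32. AT1G32810 was lower by -0.23 in both lines, with no overlap with the control arrays. A second, dimmer probe of AT1G32810 differed by only -0.02 in ISH1 and -0.12 in ISH2. In ISH2 the gene lost the call without any 1 ISH2 or control array (limma, adjusted p up to 0.206).

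A single gene went opposite ways. AT3G56210 (chromosome 3, 20852380 to 20855610) was at 0.79, 0.70 and 0.80 in ISH1 and at -1.14, -1.15 and -1.16 in ISH2, against 0.06, -0.22 and 0.02 in control roots. The difference was 0.81 ± 0.13 SE in ISH1 (adjusted p = 0.0048, and 0.028 without ISH1 replicate 1) and -1.10 ± 0.13 SE in ISH2 (adjusted p = 0.00014), and the lines differed from each other by 1.92 (adjusted p = 1.03e-07). Of its other probes, one gave 0.65 in ISH1 and -2.25 in ISH2, and the other gave -0.14 and -0.01. With estradiol the differences were 1.12 and -0.92.

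Between the lines, 528 genes were called (1.9%), with 415 higher (1.49%) and 113 lower (0.406%) in ISH1 than in ISH2, and without ISH1 replicate 1 the total was 239. Of the 178 genes higher in ISH1 than in control roots, 113 were also higher than in ISH2, and 9 of the 35 lower genes were also lower. Of the genes called in ISH2 against control roots, 25 of the 87 higher and 62 of the 94 lower also differed from ISH1 in the same direction.

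The calls made without estradiol were looked up in the arrays with estradiol, which share no array with them but lie at the same slide positions. There 61.8% of all genes were called in ISH1 and 40.1% in ISH2. Of the ISH2 genes, 67 of 87 (77%) were also called higher and 77 of 94 (81.9%) also called lower, against 21.5% and 18.5% of all genes. Of the ISH1 genes, 96 of 178 (53.9%) were also called higher and 23 of 35 (65.7%) also called lower, against 27.5% and 34.3% of all genes, and 17 of the 178 were called lower instead. Among the 66 ISH1 genes that stayed called without replicate 1, 37 (56.1%) were called higher with estradiol. GER3 was among those that turned, at -2.47 with estradiol (adjusted p = 0.0335), and LTL1 gave 0.72 (adjusted p = 0.21).

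In the prepared gene lists, few genes moved. Of 12 low-oxygen genes, 2 were higher in ISH1 (against 0.64% of all genes) and none was lower or called in ISH2. These were ETR2, an ethylene receptor, at -0.85, -0.91 and -0.88 in ISH1, against -1.20, -1.47 and -1.37 in control roots (0.47 ± 0.07 SE, adjusted p = 0.00145), and PDC1, the pyruvate decarboxylase of ethanol fermentation, at -0.15, -0.10 and -0.19, against -0.73, -1.28 and -0.79 (0.79 ± 0.16 SE, adjusted p = 0.0274, and 0.115 without ISH1 replicate 1). The median of the list was 0.51 in ISH1 and -0.16 in ISH2. Of 11 heat shock genes, the heat shock factor HSFA2 was higher by 0.62 in ISH1 and 0.69 in ISH2, and HSP18.2 was lower in ISH1, at -1.38, -1.64 and -1.66, against -1.01, -0.93 and -0.81 (-0.64 ± 0.14 SE, adjusted p = 0.0371). Without ISH1 replicate 1 HSFA2 and HSP18.2 lost their ISH1 calls, at adjusted p of 0.115 and 0.0549, and leaving out other single arrays also ended the calls of PDC1, HSFA2 and HSP18.2, at adjusted p of up to 0.147, 0.129 and 0.13. None of the tested members of the lists for seed storage, root hairs, defence, phosphate starvation, iron uptake, nitrogen, suberin and the Casparian strip, the circadian clock, flavonoids, glucosinolates, the cell cycle, type-A response regulators and auxin response was called in either line, and the medians of these lists lay between -0.24 and 0.75 in ISH1 and between -0.10 and 0.38 in ISH2. The 0.75 was that of the seed list, whose median was 0.14 without ISH1 replicate 1.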

How the data were processed

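Total RNA of roots was labelled with Cy3 and hybridised to one-colour Agilent arrays of 43603 probes, 3 arrays per group. Per the file headers, the deposited intensity is the processed signal of Feature Extraction 10.7.3.1, corrected for background and not normalised between arrays. Also deposited by the authors were log2 values, shifted to the 75th percentile of each array and set to the median of all samples, which served as an alternative. The methods name GeneSpring for this step.

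Under R 4.3.3, data.table (version 1.17.8) served for reading. Control spots and 346 spots marked by the scanner software were left out, spots of a probe were averaged, and log2 minus the 75th percentile of each array (4577 to 6427 before log2) was taken. A probe stayed if some group had it well above background on all 3 arrays (36573 probes), and each gene was represented by its probe of highest mean. This gave 27816 genes, 22281 matched to a locus of the RefSeq annotation (assembly TAIR10.1), the source of all coordinates, and 5535 under the name on the array. Of all probes, 34348 matched a locus through their accession.

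Differences were tested with limma 3.58.1 in all 24 arrays and 8 groups, without a block, at an adjusted p below 0.05 (Benjamini-Hochberg, two-sided). Precision is limited by the 3 arrays per group, and a permutation of 3 against 3 arrays cannot give a p below 0.1. The model was tested on simulated data with independent normal noise on each array. Those data held no shared slides and no array like ISH1 replicate 1, so that test does not cover these features. Uninduced arrays of one replicate number shared a slide, per the file headers. Their deviations from the group means correlated at 0.24 to 0.40 between ISH1 and ISH2 and at -0.08 to 0.07 between either line and control. The source of the correlation was not tested.

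Genes were named by a rule. It takes, for each line, up to 8 rises and 8 falls among called genes well above background on all 6 arrays, of the same sign on each slide and still called without ISH1 replicate 1, and the 3 largest bounds in each direction. It also takes up to 6 and 6 genes in both lines, genes of opposite direction, up to 4 members of each gene list, and neighbouring genes called in the same direction by at least 4-fold. Genes outside it are said to be chosen after their values were seen. The groups compared, the rule and the gene lists were chosen with earlier results of these data known. The list of 25 leaf and shoot genes, the stretch of chromosome 5, the omission of the slide of replicate 1, the comparison with estradiol and neighbouring runs of any size were chosen after seeing the data. Alternatives were quantile normalisation, normexp (offset 50, on the median signal), a pseudocount of 16, the authors' log2 values, other filters, fits with fewer arrays, the slide as a block, a robust fit with a variance trend, a 2-fold minimum and the omission of each array.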

Additional observations from a re-analysis of the deposited data

Results flagged for a closer look

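AT3G56210 differed from control roots in opposite directions in the ISH1 and ISH2 lines, and the difference between the lines was itself tested and called, at 1.92 for ISH1 minus ISH2 (limma, adjusted p = 1.03e-07). All 3 ISH1 arrays lay above all control arrays and all 3 ISH2 arrays lay below them.

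Spike-in RNA, which no comparison used, was higher at its dim end on ISH1 replicate 1 than on any other array of the series. The log2 signal of E1A_r60_3 was 5.38 there, against 1.77 to 3.12 on the other 23 arrays. That of a104 was 6.73, against 2.84 to 4.31, and that of a107 was 7.24, against 5.67 to 6.15. Its probe values correlated with those of the other 8 arrays without estradiol at 0.969 to 0.974 across probes, against at least 0.991 among those 8.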

How the results depend on the processing

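No difference of a factor or a named gene changed sign. Of 60 named differences, 19 stayed called in every setting in which they could be computed; over 1127 pairs of difference and setting, 954 stayed called and 173 did not, of them 34 of 60 with normexp, 27 without the slide of replicate 1 and 22 with the 9 arrays alone. Median differences over all genes stayed within -0.01 and 0.03 under the 4 scalings. The counts moved more. In ISH1, the 213 calls became 23 with normexp, 106 with probes well above background on all 9 arrays, 53 with the 9 arrays alone, 12 with the 6 arrays alone, 49 without the slide of replicate 1, 119 at 2-fold or more and 80 to 422 without single arrays. In ISH2, the 181 calls became 44 with normexp (16 higher and 28 lower, a share of higher calls of 36.4% against 48.1%), 99 with the 9 arrays, 85 with the 6 arrays, 65 without that slide, 48 at 2-fold or more and 69 to 204 without single arrays. Between the lines, the 528 calls became 75 with normexp, 190 with the 9 arrays, 84 with the 6 arrays, 131 without that slide, 169 at 2-fold or more and 190 to 595 without single arrays, and quantile normalisation gave 293 higher and 149 lower (66.3% higher against 78.6%). In both lines, the 25 calls became 8 with normexp, 16 with the 9 arrays, 15 without that slide, 10 at 2-fold or more and 16 to 25 without single arrays. Fits with fewer arrays have fewer degrees of freedom; the cause of the other changes was not tested.

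The difference of ATHB25 in ISH1 was 1.77 with normexp (adjusted p = 0.484), the only setting that ended its call, 3.25 with the pseudocount and 4.31 to 4.51 without single arrays. In ISH2 it was 0.27 with normexp, 0.96 with the pseudocount, 1.69 without a filter (adjusted p = 0.0546), 1.69 with the 9 arrays (adjusted p = 0.132), 1.29 without the slide of replicate 1 (adjusted p = 0.394) and 1.37 to 2.05 without single arrays. REM7 in ISH2 was 1.67 with the 9 arrays (adjusted p = 0.000877) and 1.59 to 1.76 without single arrays.

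For uninduced arrays, the same replicate number means the same slide. Deviations from the group means correlated at -0.08 to 0.07 between lines and control of one number, so for these comparisons the numbers were not taken as pairs. Between ISH1 and ISH2 they correlated at 0.24 to 0.40. Control arrays lay on the same slides, and whether the shared slide gave this correlation was not tested. With the slide as a block, 227 genes were called in ISH1 (173 higher, 54 lower), 147 in ISH2 (68 and 79), 596 between the lines (438 and 158, with 450 of the 528 shared) and 21 in both lines, and ATHB25 in ISH2 lost its call (1.69, adjusted p = 0.0559).

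Dim probes limit these comparisons. Of the 178 genes higher in ISH1, 52 had no control array well above background, and their fitted folds depend on values near background. Each group had 3 arrays, and position on the slide goes with the line throughout.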
